A study of Equus caballus with 6 samples.

Results

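The axon guidance ligands and receptors described here are the semaphorins and plexins, the neuropilins, the ephrins and Eph receptors, the SLITs and ROBOs, and the netrins and their receptors. They were chosen by gene name: every non-control probe whose gene symbol began with SEMA, PLXN, EPHA, EPHB, EFNA, EFNB, SLIT, ROBO or UNC5, or was NRP1, NRP2, NTN1, NTN3, NTN4, DCC or NEO1, with the SLITRK genes left out. This gave 100 probes for 58 genes, of 43603 probes and 16748 named genes in all. By family there were 16 semaphorins, 8 plexins, 2 neuropilins, 7 ephrins, 13 Eph receptors, 2 SLITs, 3 ROBOs and 5 netrin receptors (DCC and UNC5 genes). The letters of the rule also took in UNC50, which encodes a Golgi protein unrelated to the netrin receptors, and UNC5CL, which encodes a UNC5C-like protein. Netrins, NEO1 and ROBO1 had no probe under a matching name and were not analysed here.

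Horse joint tissue was measured on single-colour expression arrays, 1 array for each of 6 regions. The adult regions were 3 depths of articular cartilage of the stifle at 15 years of age: the superficial zone (outer 10%), the middle zone (20 to 30%) and the deep zone (50 to 90%). The fetal regions came from the hindlimb at gestational day 40. The interzone is the dense band of tissue in which the joint forms, and its intermediate layer and its outer layer were taken separately. The other was transient embryonic cartilage, which later gives way to bone. All regions were cut out by laser capture, and the RNA was amplified by PCR. The sources used here do not say how many animals each region came from. No region had a replicate, so no difference between 2 regions carries a p-value, and the errors given are those of the spots or probes only.

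Axon guidance cues steer growing nerve fibres by attracting or repelling them, and the same cues direct migrating cells, blood vessels and the borders between tissues. Semaphorins act through plexins, and most secreted class 3 semaphorins need a neuropilin as the binding partner of the plexin. Ephrins sit on the cell surface and signal through Eph receptor tyrosine kinases on the touching cell. SLITs are secreted and bind ROBO receptors, and netrins bind DCC, neogenin and the UNC5 receptors. Several of these cues also act in the skeleton, where semaphorins and ephrins take part in the exchange between bone-forming and bone-resorbing cells, and healthy articular cartilage holds neither nerves nor vessels.

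The arrays differed in how much signal stood above background, which bounds what can be said of each gene. A probe counted as measured where the scanner software called it well above background, and a gene where any of its probes was. The share of all named genes that met this was 28.5%, 9.98% and 12.4% in the superficial, middle and deep adult zones, against 36.6%, 42.4% and 44.5% in the intermediate layer, the outer layer and transient cartilage. Of 11 genes used in most cells, 7, 3 and 4 were measured in the superficial, middle and deep zones, against 9, 10 and 9 on the fetal arrays in the same order, so a gene below background in the middle or deep zone may still be transcribed there. COL2A1, the main cartilage collagen, was well above background on all 3 fetal arrays and on no adult array, whereas the chondrocyte genes SOX9, COL11A1 and COMP were measured on all 6. GDF5, a joint-forming growth factor, was measured in both interzone layers and nowhere else. All adult arrays lay on 1 slide and all fetal arrays on another, so age and slide cannot be told apart.

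Each probe is 60 bases long, and 42 of the 58 genes had 1 probe. Of the 16 genes with several, 12 had probes that all overlapped another by 10 bases or more, many of them in sets of 5 shifted along the transcript by 1 or a few bases. Such sets measure nearly the same stretch again, and they show which signals hold from spot to spot. The first 30 bases of the probes on which the results below turn are printed 5′ to 3′, with capitals marking the stretch that the printed probes of 1 gene share.
SEMA3C probe A: GTTGCCAGAGtcataatgttttcttacatg
SEMA3C probe B: agtcggaacaggaggaatcaGTTGCCAGAG
SEMA3C probe C: ctgtttaatggattactgtgtttgttctaa
NRP2 probe A: TAGGAAAAGGACGTTCAGGAGAAATTGCCa
NRP2 probe B: aTAGGAAAAGGACGTTCAGGAGAAATTGCC
PLXNA4 probe A: AAGCAGAAACTGGCCTACAAACTAGAACAa
PLXNA4 probe B: gAAGCAGAAACTGGCCTACAAACTAGAACA
SEMA3F probe A: CCTGCCATGGGCCAGCCTAGCCCTTGTCTc
SEMA3F probe B: cCCTGCCATGGGCCAGCCTAGCCCTTGTCT
ROBO2 probe A: ACCTTCTTGACATAGGATATATGGGCTCAa
ROBO2 probe B: gACCTTCTTGACATAGGATATATGGGCTCA
SEMA3A probe A: gcttatcaaccaccccaacctgaacacaat
SEMA3B probe A: actcagcggctgtcaccagcatgcaaatct
SEMA3C probes A and B share 40 of their 60 bases, and probe C shares none with either. The paired probes of NRP2, PLXNA4, SEMA3F and ROBO2 share 59 of 60 bases. SEMA3A and SEMA3B are shown because each rests on a single probe. Signals below are scaled to a common upper quartile over the 1765 probes measured on all 6 arrays, and each gene is given by its brightest probe unless another is named. A signal compares arrays for 1 probe and not 1 gene with another.

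Of the 58 genes, 39 stood above background on at least 1 array. The superficial, middle and deep adult zones had 15, 9 and 8 of them (25.9%, 15.5% and 13.8%), and the intermediate layer, the outer layer and transient cartilage had 23, 25 and 27 (39.7%, 43.1% and 46.6%). These shares lay near those of all named genes on each array, with the widest gap in the middle zone, 15.5% against 9.98%. SEMA3C, EFNA3, EPHB3 and ROBO3 were measured on all 6 arrays. On adult arrays alone 6 genes were measured (SEMA3E, SEMA3G, SEMA4D, NRP2, EPHA5 and UNC5B), 15.4% of the 39, beside 8.78% of the 10181 genes measured anywhere. On fetal arrays alone 19 were measured, 48.7%, beside 45.6% of all, and 14 were measured at both ages. No array showed the other 19: SEMA4C, SEMA4F, SEMA5B, SEMA6D, SEMA7A, PLXNB3, NRP1, EFNA5, EFNB3, EPHA1, EPHA2, EPHA6, EPHA8, EPHA10, EPHB1, DCC, UNC5A, UNC5D and UNC5CL.

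**Figure D1:**
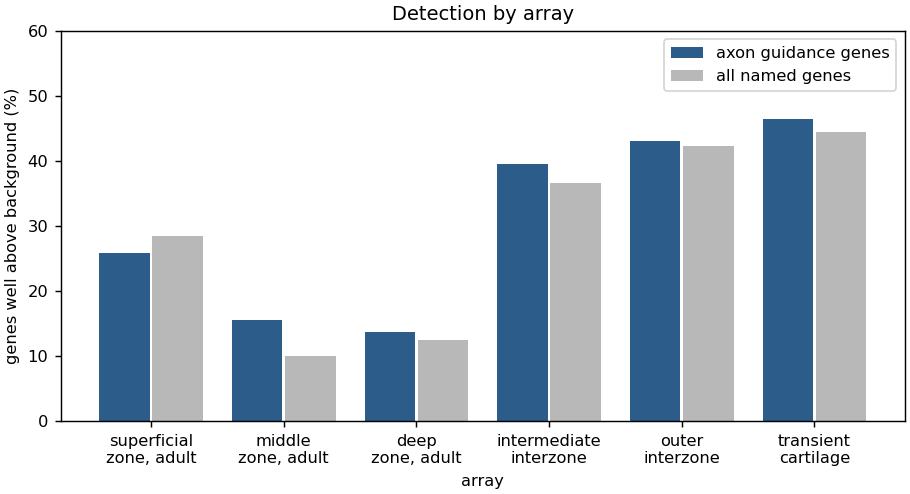
Share of genes well above background on each array (%), for the 58 axon guidance genes (blue bars) and all 16748 named genes (grey bars). The blue bars run from 13.8% in the deep adult zone to 46.6% in transient cartilage and follow the grey bars.

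**Figure D2:**
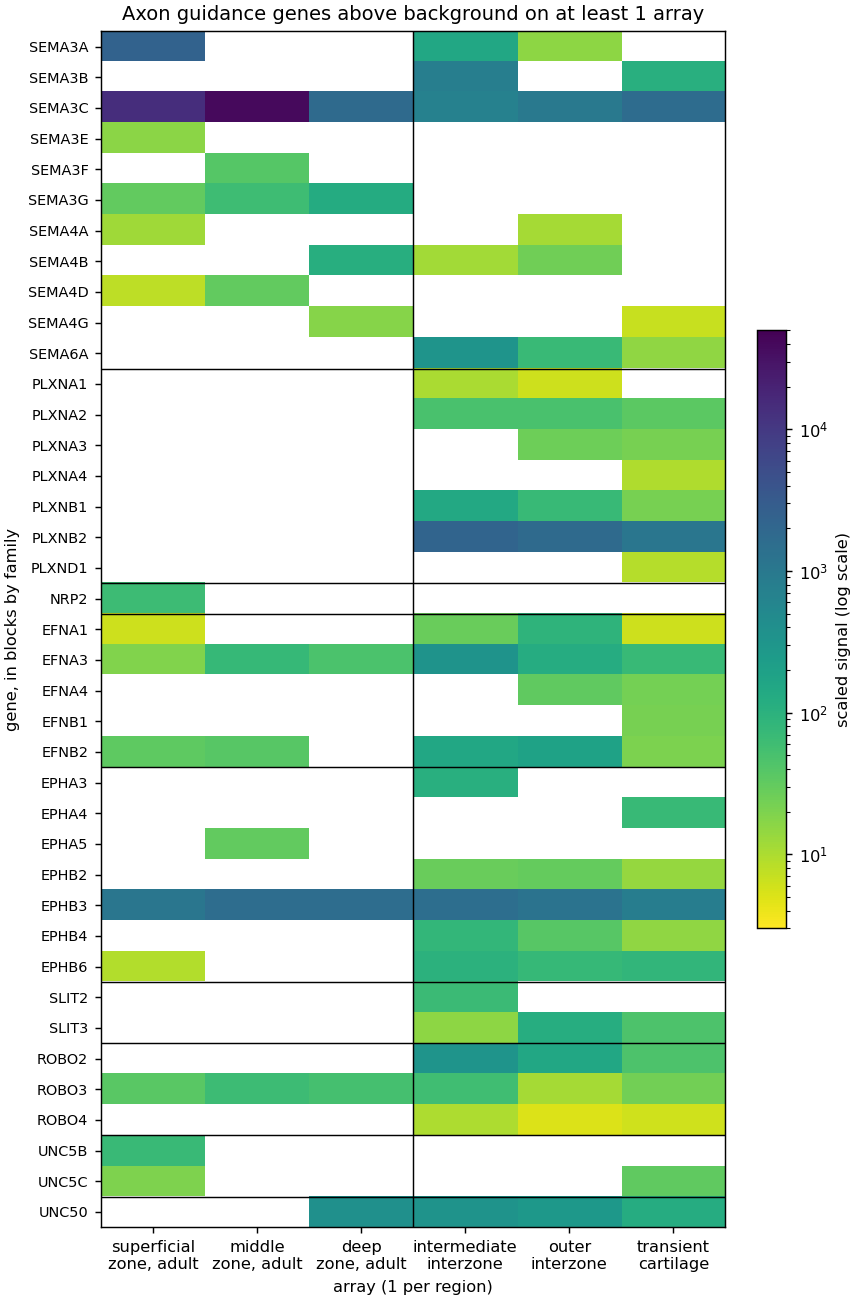
Scaled signal (log colour scale) of the 39 axon guidance genes measured on at least 1 array, by array, with white where the gene's brightest probe was not well above background. Colours compare arrays within a row only. The plexin block is filled on fetal arrays alone, and SEMA3C, EFNA3, EPHB3 and ROBO3 are filled in every column.

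Among the secreted class 3 semaphorins, SEMA3C had scaled signals of 13887, 39252 and 1761 in the superficial, middle and deep adult zones, against 709, 990.3 and 1619.9 in the intermediate layer, the outer layer and transient cartilage. All adult signals of this probe lay above all fetal ones, by a small margin in the deep zone. Probe B, which overlaps it, had 12680, 35670.2 and 1655 in the adult zones, against 738, 977 and 1679 on the fetal arrays, and here the deep zone lay below transient cartilage. Probe C had 4544 in the superficial zone, was not well above background in the middle and deep zones (6.02 and 3.32), and had 263, 699.8 and 919 on the fetal arrays. The 3 probes thus shared a high superficial signal and the fetal order, lowest in the intermediate layer and highest in transient cartilage, and parted in the middle and deep zones, where the 2 overlapping probes were bright and probe C was at background. The difference between the probes was not tested further.

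**Figure D3:**
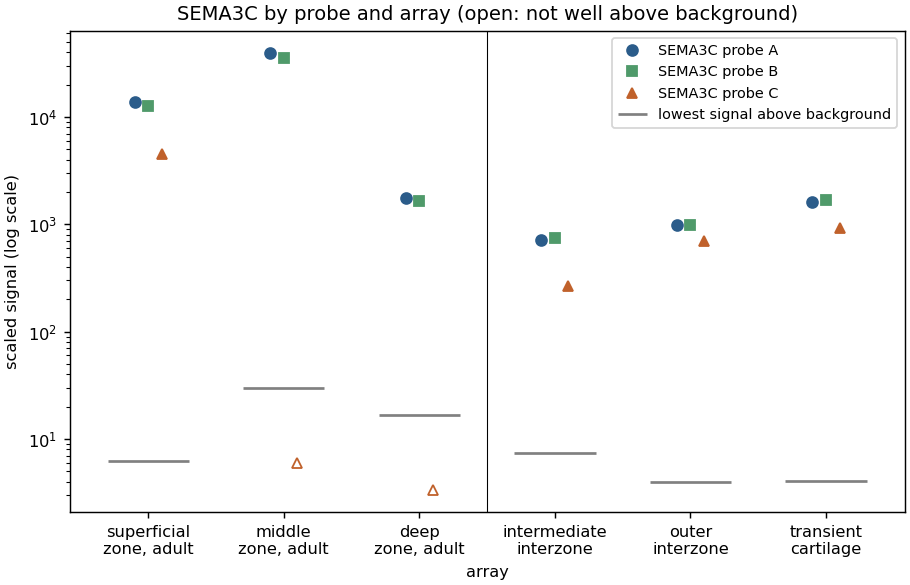
Scaled signal of the 3 SEMA3C probes on each array (log axis), with open symbols where a probe was not well above background and grey lines at the lowest signal above background on that array. Probes A and B lie together everywhere, and probe C falls below the grey line in the middle and deep adult zones.

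SEMA3A, which repels sensory axons, had 2325 in the superficial zone and lay at background in the middle and deep zones (6.02 and 3.32). It had 148 in the intermediate layer and 15.9 in the outer layer, and its spot in transient cartilage was called an outlier by the scanner software and was not used. The superficial signal was the highest of the 5 used. SEMA3E, a class 3 semaphorin that binds plexin D1 without a neuropilin, was measured in the superficial zone alone, at 16.2. In the reference annotation SEMA3E and SEMA3A are neighbours with 0 protein-coding genes between them, and the superficial zone was the only adult zone in which either was measured. For SEMA3E this says little. Its 16.2 lay below the lowest signals above background of the middle (30.0) and deep (16.6) zones, so it could not have been called there.

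SEMA3G had its highest adult signal in the deep zone under this scaling, with 31.2 in the superficial, 61.4 in the middle and 124 in the deep zone, and was not well above background on the fetal arrays (7.49, 2.80 and 4.10). It was the single axon guidance gene measured on all adult and no fetal arrays. SEMA3B showed the opposite restriction: it was at background in all adult zones (1.46, 6.21 and 12.1), and had 768 in the intermediate layer, background (0.836) in the outer layer and 110.0 in transient cartilage. The outer interzone thus stood apart from both fetal neighbours for this gene. SEMA3F, the class 3 semaphorin known for binding neuropilin 2, was supported by few of its 5 spots. Its probe B was above background in the middle zone (38.9), where its other 4 probes were not, and probe A was above background at 4.49 in the outer layer and 4.38 in transient cartilage, where probe B was not.

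The membrane-bound class 4 semaphorins were dim. SEMA4B had 115 in the deep zone, where the superficial (3.31) and middle (21.8) zones were not above background, and 11.5 and 24.5 in the intermediate and outer layers, with transient cartilage at background (1.07). SEMA4D, the ligand of plexin B1, was measured in the superficial (7.85) and middle (31.4) zones and on no fetal array. Both signals lay close to the lowest signal above background there (6.22 and 30.0). SEMA4A was measured in the superficial zone (12.0) and the outer layer (11.3), and SEMA4G in the deep zone (17.5) and transient cartilage (6.70), all close to the lowest signal above background on their arrays (6.22 superficial, 30.0 middle, 16.6 deep, 7.44 intermediate, 3.94 outer and 4.10 transient). SEMA6A, a transmembrane semaphorin that binds class A plexins, was measured on fetal arrays alone and was graded: 328 in the intermediate layer, 70.0 in the outer layer and 15.0 in transient cartilage, with 1.52, 6.02 and 3.32 in the adult zones.

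All 7 plexins that were measured were measured on fetal arrays alone, as were 45.6% of all genes measured anywhere, and no adult zone showed any. The fetal signals of PLXNA1, PLXNA3, PLXNA4 and PLXND1 lay below the lowest signal above background of the middle zone (30.0). Those of PLXNA1, PLXNA4 and PLXND1 also lay below that of the deep zone (16.6). At those levels they could not have been called there. Plexins are the signalling receptors for the semaphorins, of which the superficial, middle and deep zones showed 6, 4 and 4. PLXNB2 was the clearest case, with 1.25, 6.02 and 3.32 in the superficial, middle and deep zones, all not well above background, against 2182, 1752 and 1099.6 in the intermediate layer, the outer layer and transient cartilage. PLXNB1 followed the same fetal order, with 141, 71.3 and 22.0. The 5 overlapping probes of PLXNA2 gave a flat fetal pattern, 42.2 to 50.9 in the intermediate layer, 38.5 to 48.4 in the outer layer and 27.9 to 36.6 in transient cartilage.

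Of the remaining plexins, PLXNA1 had 10.4 and 6.34 in the intermediate and outer layers and was at background in transient cartilage. Its deep zone signal, 10.3, was as high as that of the intermediate layer and lay under the lowest signal above background there. PLXNA3 had 25.6 and 21.8 in the outer layer and transient cartilage and was at background in the intermediate layer. PLXND1, the SEMA3E receptor, was measured in transient cartilage alone, at 8.73. PLXNA4 was called there by probe A alone (9.68), whereas its other 4 probes, which share 55 to 59 bases with probe A, lay at 0.860 to 1.24. The neuropilin calls were as thin: NRP1 was measured nowhere, and NRP2 was measured in the superficial zone by probe A alone (64.8), with its other 4 probes at 1.25 to 1.89. Since those probes share 56 to 59 of 60 bases with probe A, the NRP2 and PLXNA4 signals rest on 1 spot each.

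The ephrins A, held in the membrane by a lipid anchor, differed between the regions. EFNA3 was measured everywhere, at 19.0, 73.6 and 47.7 in the superficial, middle and deep adult zones, against 338, 124 and 70.1 in the intermediate layer, the outer layer and transient cartilage. Its lowest fetal signal lay just below its highest adult one. EFNA1 had 6.22 in the superficial zone and was at background in the middle and deep zones, and its fetal maximum was in the outer layer (90.7), with 27.8 in the intermediate layer and 6.38 in transient cartilage. EFNA4 was measured in the outer layer (32.7) and transient cartilage (22.7) alone. EFNA1, EFNA3 and EFNA4 are neighbours in the reference annotation, in the order EFNA1, EFNA3, EFNA4 with 0 protein-coding genes between adjacent members. Under this scaling each peaked in a fetal interzone layer, EFNA3 in the intermediate and the other 2 in the outer. After normexp background correction, an alternative, EFNA1 was level between the layers (0.02 on the log2 scale). EFNA4 in the outer layer exceeded transient cartilage by 0.53 ± 0.21 (log2, spot error), and by 0.26 to 0.91 under other settings. Of the transmembrane ephrins B, EFNB2 had 33.1 and 38.1 in the superficial and middle zones (deep not above background, 10.4), against 149, 187 and 20.1 in the intermediate layer, the outer layer and transient cartilage, so that both interzone layers stood above every other region. EFNB1 was measured in transient cartilage alone (22.0).

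The receptor EPHB3 was the steadiest of these genes, at 1102, 1539.6 and 1520.1 in the superficial, middle and deep zones, against 1473, 1219 and 801 in the intermediate layer, the outer layer and transient cartilage. The adult and fetal ranges overlapped. EPHB4, the main receptor of ephrin B2, was measured on fetal arrays alone, at 80.5, 37.3 and 14.8 in that fetal order, as was EPHB2, at 28.1, 29.5 and 14.0. At its fetal levels EPHB2 could not have been called in the middle zone, where the lowest signal above background was 30.0. EPHB6, which lacks kinase activity, had 9.21 in the superficial zone, with 96.6, 73.5 and 84.2 on the fetal arrays. Of the 8 class A receptors, 3 were each measured in 1 region and 5 in none. EPHA3 was above background in the intermediate layer by all 5 overlapping probes (89.4 to 124), EPHA4 in transient cartilage (71.0, 1 probe) and EPHA5 in the middle zone (30.9, 1 probe, beside a lowest signal above background of 30.0 there).

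Both SLIT ligands were measured on fetal arrays alone. SLIT2 stood above background on all 5 overlapping probes in the intermediate layer (59.6 to 79.5), on 2 of 5 in the outer layer (4.84 and 4.93) and on none in transient cartilage. SLIT3 ran the other way within the interzone, with 15.4 in the intermediate layer, 118 in the outer layer and 45.0 in transient cartilage. A second SLIT3 probe was not well above background on any array. Of the receptors, ROBO2 had 328, 145 and 45.7 in the intermediate layer, the outer layer and transient cartilage and was at background in the adult (1.33, 14.8 and 3.32). Its 5 probes differed by an SD of 0.07 to 0.12 log2 units on the fetal arrays, so the fetal order held on each. ROBO3, whose mammalian form has lost high-affinity binding of SLITs, was measured on all arrays, with 35.9, 64.0 and 51.8 in the adult zones, against 59.5, 11.1 and 23.4 on the fetal arrays. ROBO4, the adjacent gene, known as an endothelial receptor, had 2.95, 17.3 and 5.92 in the adult zones, none well above background, against 9.98, 5.02 and 6.02 on the fetal arrays. Its fetal signals lay below the lowest signals above background of the middle and deep zones, so it could not have been called there at those levels.

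Of the netrin receptors, UNC5B was measured in the superficial zone alone (68.1), with 6.02 and 3.32 in the middle and deep zones and 1.96 to 3.92 on the fetal arrays. UNC5C, a repulsive netrin receptor, was measured by both of its probes in the superficial zone (12.0 and 19.4) and in transient cartilage (13.3 and 31.7), and by neither elsewhere. UNC50, taken in by its letters, had 386 in the deep zone, was at background in the superficial and middle zones, and had 340, 283 and 121 on the fetal arrays.

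Marker genes of nerve, vessel and other tissues bear on which cells were sampled. Of 9 endothelial markers on the array, 1 or 2 were measured per array: EGFL7 on all 6, VWF in the adult zones and TIE1 in the outer layer, while PECAM1, CDH5 and KDR were at background throughout. The summed signal of those measured was 50.1 to 216 in adult zones and 23.4 to 38.3 in fetal regions. Of 9 neuronal markers, NEFL was measured on all 6 arrays, ISL1 in both interzone layers, SNAP25 in the intermediate layer and NEFM in transient cartilage, for a sum of 84.6 to 182 in adult zones and 94.7 to 194 in fetal regions. GAP43, STMN2 and PRPH, genes of growing or peripheral neurons, were at background on every array. Of 5 Schwann cell markers, S100B alone was measured, in transient cartilage, where cartilage cells also make it. Skeletal muscle genes summed to 65.3 to 161 in adult zones and 781 to 1165 in fetal regions. The 7 macrophage and osteoclast markers summed to 41588 to 54258 in adult zones, with 3 to 5 measured, and to 111610, 60608 and 57696 in the intermediate layer, the outer layer and transient cartilage, with 5 to 6 measured. PTPRC, given by the brightest of its 15 probes, had 41158 to 111098 on the 6 arrays. On each array that was above EEF1A1, a gene used in most cells (25805 to 50679). Whether this probe measures PTPRC RNA was not tested. PTPRC made up most of each sum, and without it the sums were 44.9 to 3210 in adult zones and 512, 311 and 229 on the fetal arrays in that order. AIF1, a macrophage gene, had 375, 48.9 and 37.9 there and was at background in the adult, and ACP5, an osteoclast enzyme, was at background throughout. HBB, a blood marker, had 385, 28.5 and 77.8 on the fetal arrays and was measured at 17.4 in the deep zone alone among adult zones. Among the fetal arrays the macrophage sums and HBB were thus highest in the intermediate layer, as were SEMA6A, ROBO2 and PLXNB1. The macrophage and osteoclast markers did not move as 1 set. PTPRC, AIF1, CSF1R and LAPTM5 were highest in the intermediate layer. CD68 was highest in the outer layer (101, 239 and 100 in the same order), and CTSK was measured among fetal regions in transient cartilage alone (71.0). Without PTPRC, AIF1 made up most of the sum in the intermediate layer. Of 3 smooth muscle markers 1 was measured, at 315 in the superficial zone and at 213 and 397 in the intermediate and outer layers. KRT17 and EPCAM, epithelial genes, were measured among fetal regions in the outer layer alone. The part of such cells in the axon guidance signals was not tested. In bulk tissue of this kind, fewer cells of a type and less RNA per cell cannot be told apart.

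The intermediate layer was set against transient cartilage to show how the guidance genes of the future joint space differ from those of cartilage fated to become bone. The largest measured difference was that of SEMA6A, 21.9-fold higher in the intermediate layer (4.45 ± 0.22 on the log2 scale, spot error). EFNB2 was 7.40-fold, ROBO2 7.17-fold, SEMA3B 6.98-fold, PLXNB1 6.41-fold, EPHB4 5.44-fold, EFNA3 4.82-fold and EFNA1 4.35-fold higher. EPHA3 and SLIT2 were at background in transient cartilage, and the intermediate layer exceeded it by at least 26.3-fold for EPHA3 and by at least 16.2-fold for SLIT2. Such bounds hold for this scaling: after normexp background correction they were 2.75 for EPHA3 and 2.34 for SLIT2 on the log2 scale. In the other direction stood EPHA4, at least 9.55-fold lower, UNC5C, at least 4.26-fold lower, EFNA4, at least 3.05-fold lower, and EFNB1, at least 2.96-fold lower. Under some other scaling or background correction EFNA1, EFNA3, EPHB4, EPHA4 and UNC5C came under 4-fold, with the same sign. The weakest log2 values obtained were 1.55 for EFNA1, 1.72 for EFNA3, 1.90 for EPHB4, -0.0024 for EPHA4 and -1.21 for UNC5C. After normexp background correction UNC5C, EFNA4 and EFNB1 kept no bound.
Of 18 axon guidance genes measured on both arrays, 8 were at least 4-fold higher, beside 14.8% of the 5090 genes measured in this pair. None of the 18 was at least 4-fold lower (background 6.56%), and the lowest measured were SLIT3, 2.93-fold lower (0.60 on the log2 scale, so higher, after normexp background correction), and SEMA3C, 2.28-fold lower. The median difference was 1.42 on the log2 scale, against 0.36 over all genes, and 15 of the 18 lay above that general median. These counts leave out genes at background on 1 side. Of those with a bound, 4 were higher in the intermediate layer and 7 lower, beside 942 and 1753 of all genes. Scaled to the median instead of the upper quartile of the shared probes, 5 of the 18 were at least 4-fold higher and 1 lower, and the split over all genes turned from 751 higher and 334 lower to 465 and 580. The spot errors of these differences had a median of 0.21 and probes of 1 gene differed by a median SD of 0.23, both on the log2 scale, and neither holds the variation between animals or dissections.

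In the outer layer, set against the same transient cartilage, 3 measured genes stood at least 4-fold higher. EFNA1 was 14.2-fold (3.83 ± 0.28 on the log2 scale), EFNB2 9.31-fold and SEMA6A 4.66-fold higher, and SEMA4B was at least 5.98-fold higher. PLXNB1 was 3.24-fold, ROBO2 3.17-fold and SLIT3 2.61-fold higher. SEMA3B was at least 27.9-fold lower, EPHA4 at least 18.0-fold lower, UNC5C at least 8.05-fold lower and EFNB1 at least 5.59-fold lower. The lowest measured in both were ROBO3, 2.10-fold lower, and SEMA3C, 1.64-fold lower. After normexp background correction 6 of these came under 4-fold with the same sign, at log2 values of 1.76 for EFNA1, 1.20 for SEMA6A, 0.81 for SEMA4B, -1.92 for EPHA4, -1.10 for UNC5C and -0.81 for EFNB1.
Among the 19 measured, 3 lay at least 4-fold higher (background 10.6% of 5696 genes) and 0 were at least 4-fold lower (background 8.06%). Their median was 0.82, against 0.08 over all genes on the log2 scale, and 15 of 19 lay above the general median. Of the genes with a bound, 3 were higher in the outer layer and 7 lower, beside 1291 and 1677 of all genes. In the authors' own values 5 of the 19 were at least 4-fold higher, and the split over all genes moved from 605 higher and 459 lower to 817 and 323. Both interzone comparisons share the transient cartilage array, so they are not independent of each other.

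**Figure D4:**
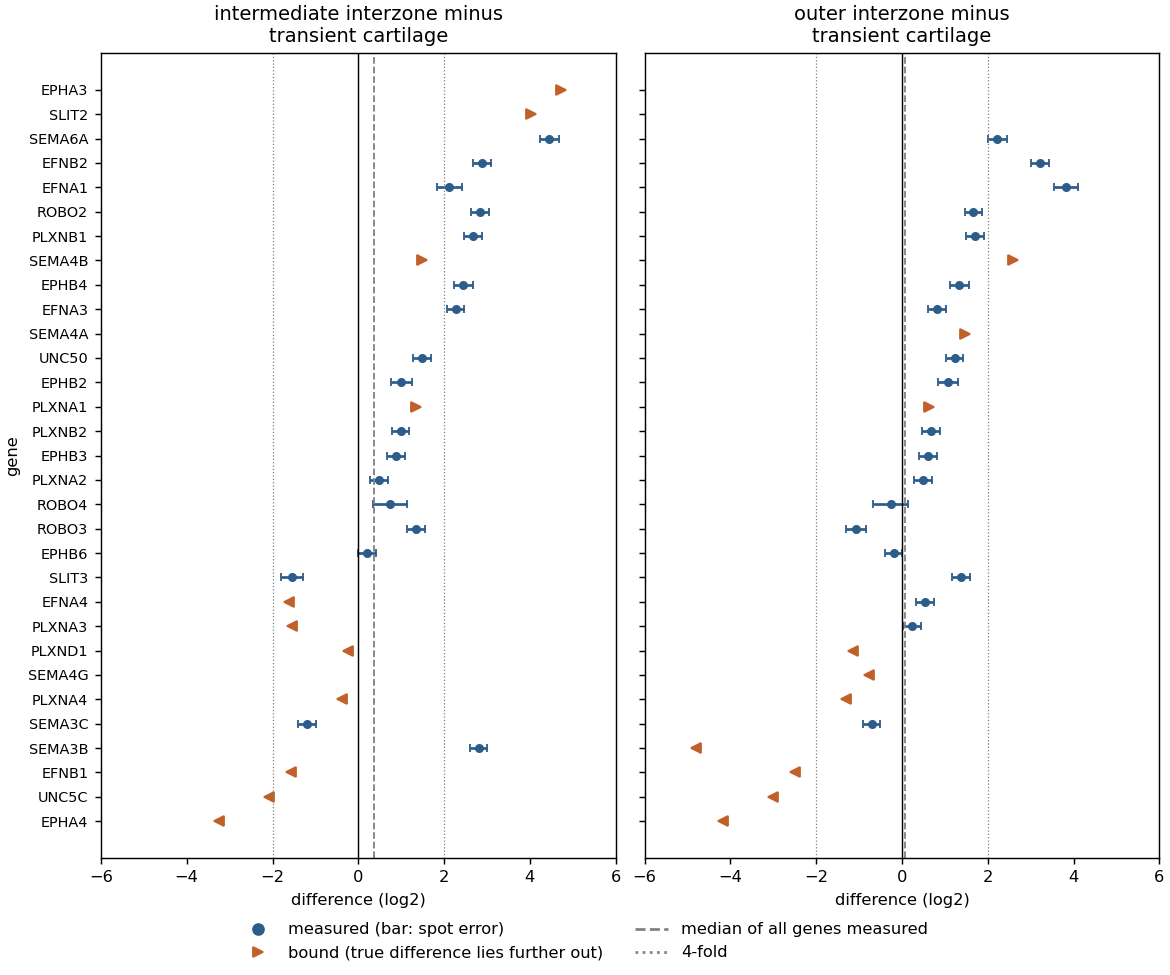
Log2 differences of axon guidance genes in the intermediate layer (left) and the outer layer (right) against transient cartilage. Blue points are measured differences with the spot error, orange arrows are bounds for genes at background on 1 side, dashed lines mark the median of all genes and dotted lines 4-fold. SEMA6A, EFNB2 and EFNA1 lie beyond 4-fold in both panels, and SEMA3B lies on opposite sides.

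Between the 2 interzone layers 4 measured genes and 3 bounds passed 4-fold. SEMA3A was 9.30-fold (3.22 ± 0.22 on the log2 scale), ROBO3 5.34-fold and SEMA6A 4.69-fold higher in the intermediate layer than in the outer, and the bounds were at least 195-fold for SEMA3B and at least 27.4-fold for EPHA3, both higher. SLIT3 was 7.64-fold lower (-2.93 ± 0.25) and SEMA3C 1.40-fold lower. EFNA1 and SEMA4B were 3.26-fold and 2.13-fold lower, and normexp background correction turned both to the other side (0.02 and 0.98 on the log2 scale). EFNA4 and PLXNA3, at background in the intermediate layer, were lower there by at least 4.40-fold and by at least 3.44-fold. The receptors PLXNA2 and EPHB2 differed by 1.00-fold and 1.05-fold, which is less than the spot error, and normexp background correction gave 0.90 for PLXNA2 and 1.11 for EPHB2 on the log2 scale. The same correction left SLIT3 at -0.42 and ROBO3 at 1.87 on the log2 scale, quantile normalization left EFNA4 at -1.09, and scaling to the median of the shared probes left SEMA6A at 1.89. SLIT2 is missing from these values because its brightest probe was not well above background in the outer layer. Its probes A and C, measured in both layers, had 59.6 and 79.5 in the intermediate layer, against 4.84 and 4.93 in the outer.
Among the 20 measured, 3 lay at least 4-fold higher (background 10.4% of 5064 genes) and 1 was at least 4-fold lower (background 7.21%), shares near those of all genes. The medians were 0.36 and 0.23 on the log2 scale, and 13 of 20 lay above the general median. Scaled to the median of the shared probes, all genes split into 391 higher and 498 lower, in place of 528 and 365.
SEMA3A could not be compared with transient cartilage in these settings. With its outlier spot there kept (20.1), an alternative chosen after seeing the data, the intermediate layer was 7.37-fold higher than transient cartilage and the outer layer was at 0.79 of it.

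The adult zones were compared by depth. SEMA3A marked the superficial zone: its signal there exceeded that of the middle zone by at least 77.5-fold and that of the deep zone by at least 140-fold. For UNC5B the same bounds were at least 2.27-fold against middle and at least 4.10-fold against deep. The single NRP2 spot gave at least 2.16-fold against middle and at least 3.90-fold against deep. In the other direction, superficial against deep, UNC50 was at least 62.1-fold lower, SEMA4B at least 18.4-fold lower and SEMA4G at least 2.81-fold lower. Superficial against middle, SEMA3F (probe B) was at least 6.25-fold lower and EPHA5 at least 4.98-fold lower. In the authors' values these 2 bounds were -0.70 for SEMA3F and -0.37 for EPHA5 on the log2 scale, and under the 75th percentile of all probes that of UNC5B against deep was 1.12.

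SEMA3C separated the deep zone from the other 2. By probe A, superficial over deep was 7.89-fold higher (2.98 ± 0.20 on the log2 scale) and middle over deep 22.3-fold higher (4.48 ± 0.20). Superficial against middle it was 2.83-fold lower (-1.50 ± 0.20), a direction that turned in the authors' own values (0.45). Probe B gave 7.66-fold higher, 21.6-fold higher and 2.81-fold lower for the same pairs. Probe C, at background in the middle and deep zones, had a superficial signal that exceeded the middle zone by at least 151-fold, the reverse of probes A and B, and the deep zone by at least 274-fold. SEMA3G was 3.98-fold lower superficial against deep under this scaling, and lower under each other scaling and background correction tried. Its smaller steps, 1.96-fold lower superficial against middle and 2.03-fold lower middle against deep, each changed side under at least 1 of them. SEMA4D, just short of 4-fold, and EFNA3, 3.87-fold, were lower superficial against middle, and in the authors' values these log2 differences were -0.054 for SEMA4D and -0.0059 for EFNA3.

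Few axon guidance genes were measured in any adult pair. Superficial against middle, 7 were measured, of which 0 were at least 4-fold higher (background 9.26% of 1253 genes) and 0 at least 4-fold lower (background 36.8%). All 7 lay below 0 under this scaling, with a median of -0.97 against -1.50 over all genes, and in the authors' own values the medians were 0.97 and 0.44, so the direction rests on the scaling. Relative to the general median, 5 of 7 were higher in the superficial zone. All genes split into 116 higher and 461 lower here, and into 295 and 83 in the authors' values.
Superficial against deep, SEMA3C alone of 5 was at least 4-fold higher (background 10.3% of 1551 genes) and 0 were at least 4-fold lower (background 19.5%), with medians of -0.53 and -0.81, and 3 of 5 lay above the general median. In the authors' values these medians were 0.56 and 0.27, and all genes split into 282 higher and 134 lower, in place of 160 and 303. Middle against deep, SEMA3C was again the single one of 5 at least 4-fold higher (background 12.5% of 1027 genes) and 0 were at least 4-fold lower (background 7.4%), with medians of 0.30 and 0.80, and 1 of 5 lay above the general median. Here the authors' values gave medians of -0.56 and -0.06 and a split of all genes into 55 higher and 118 lower, in place of 128 and 76. UNC50, at least 12.9-fold lower in the middle than in the deep zone, and SEMA4B, at least 3.82-fold lower, were the bounds of this pair on that side, and SEMA3F, EFNB2, SEMA4D and EPHA5 were at least 1.87- to 2.34-fold higher. After normexp background correction the UNC50 bound was -1.26 on the log2 scale.

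**Figure D5:**
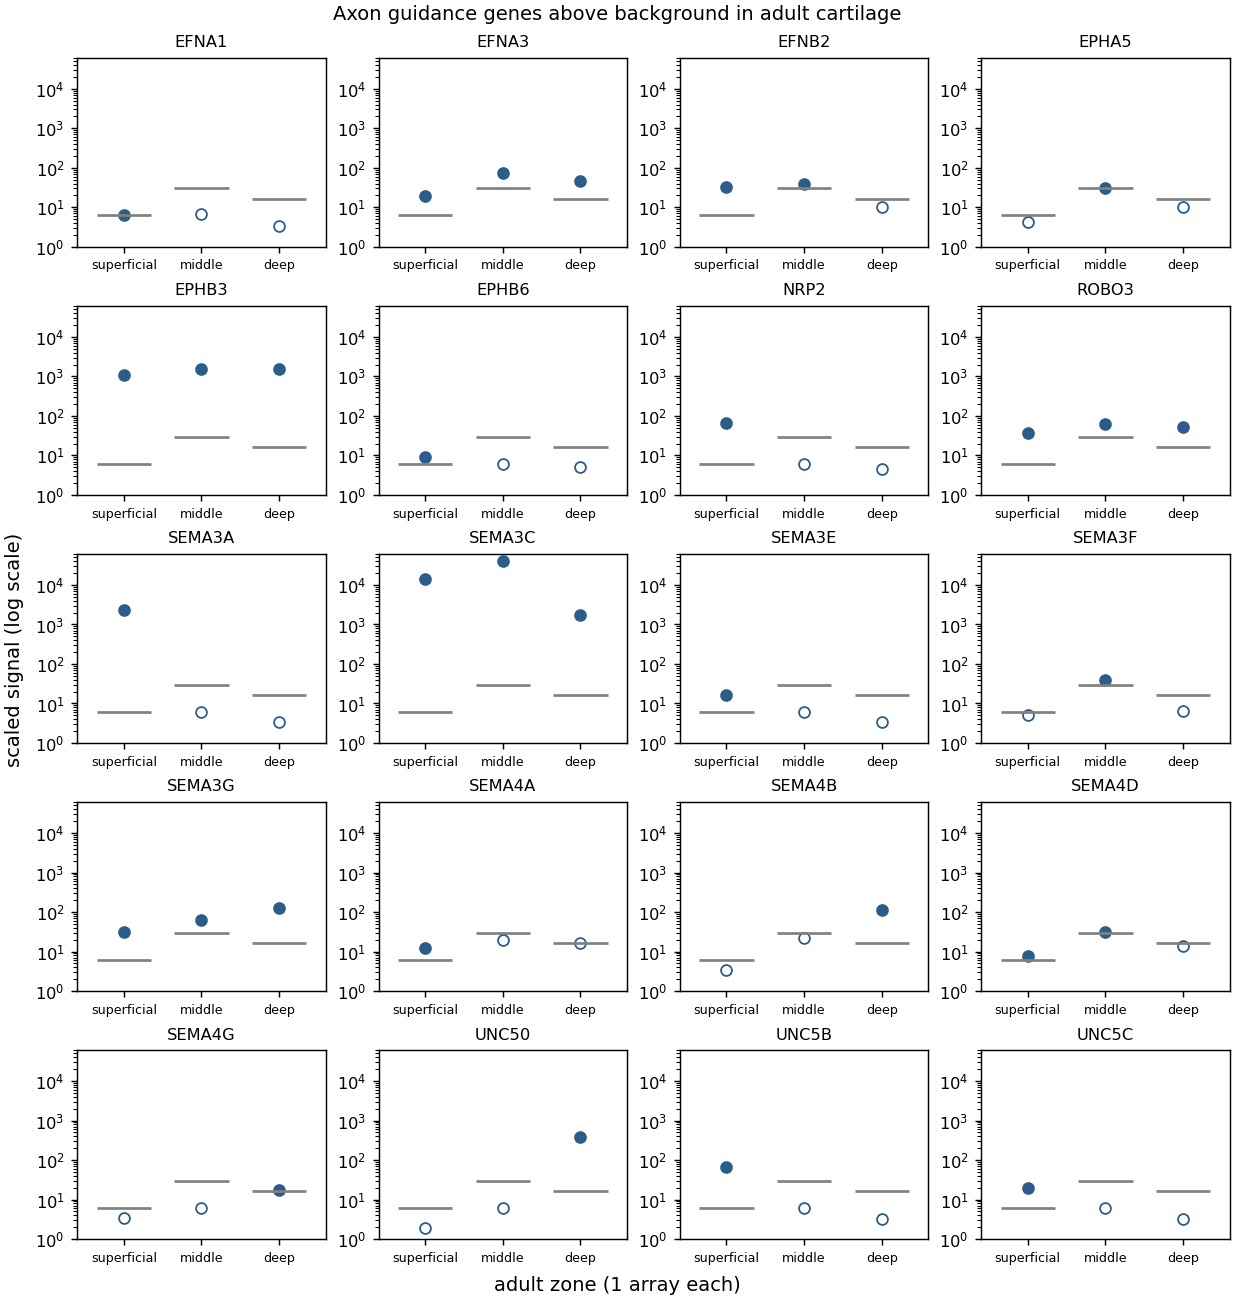
Scaled signal (log axes) in the superficial, middle and deep adult zones of the 20 axon guidance genes measured in any of them, with open symbols where the brightest probe was not well above background and grey lines at the lowest signal above background. SEMA3A stands out in the superficial zone, and SEMA3C is lowest in the deep zone. SEMA3G is highest there under this scaling, and level with the middle zone after quantile normalization (0.02 on the log2 scale).

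Adult and fetal arrays were compared as means over the 3 regions of each age, which are not replicates. Bounds were lower in the adult for 8 genes and higher for 1. PLXNB2 was at least 111-fold lower in the adult, ROBO2 at least 8.88-fold lower, SEMA6A at least 4.81-fold lower, PLXNB1 at least 4.15-fold lower and SLIT3 at least 2.97-fold lower. SEMA3G was at least 12.5-fold higher in the adult. Among the 4 genes measured on all arrays, SEMA3C was 9.45-fold higher in the adult by probe A (3.24 ± 0.12 on the log2 scale, spot error) and 8.52-fold higher by the overlapping probe B. Probe C, above background on 1 of 3 adult arrays, gave the reverse under this scaling. The adult mean was at most 131, against 553 on the fetal arrays, at least 4.21-fold lower, so here the direction for SEMA3C depends on the probe. The bound of probe C was not repeated under other scalings, and the 75th percentile of all probes moved the general median from 0.66 to 3.36. Of the other 3, ROBO3 was 1.97-fold higher, EPHB3 1.21-fold higher (lower in the authors' values, -0.26) and EFNA3 3.53-fold lower (-1.82 ± 0.13). Single arrays moved these means: SEMA3C was at 2.24 on the log2 scale without the middle zone and 4.48 without the deep zone. The log2 bound of SEMA6A was -1.15 without the intermediate layer, -1.65 without the superficial zone and -3.38 without transient cartilage. Leaving out the same 3 arrays in that order gave PLXNB1 -1.44, -1.44 and -2.78, and ROBO2 -2.48, -2.54 and -3.90. For PLXNB2 the weakest bound with an array left out was -6.18, without the superficial zone. Over all settings tried, its weakest bound was -4.08. After normexp background correction the bounds were -0.21 for SEMA6A, -0.77 for ROBO2 and 1.85 for SEMA3G, and the 75th percentile of all probes gave -0.45 for ROBO2. Under that percentile of all probes SEMA6A, PLXNB1 and SLIT3 kept no bound, so their lower adult level rests on the scaling.
Thus 1 of 4 was at least 4-fold higher (background 16% of 729 genes) and 0 at least 4-fold lower (background 9.05%), and the median was 0.63 against 0.66 over all genes. When the 75th percentile of all probes set the scale, the general median was 3.36, all genes split into 574 higher and 3 lower in place of 117 and 66, and EFNA3 was higher in the adult (0.89), so its direction rests on the scaling. Under a limma fit of the 3 adult against the 3 fetal arrays with Benjamini-Hochberg adjustment over those 729 genes, the adjusted p was 0.10 for SEMA3C, 0.18 for EFNA3, 0.39 for ROBO3 and 0.76 for EPHB3. That fit takes regions for replicates, so its p-values do not measure the spread between animals.
By detection, 9 axon guidance genes (PLXNA2, PLXNB1, PLXNB2, EPHB2, EPHB4, ROBO2, ROBO4, SEMA6A and SLIT3) were measured on all fetal and no adult arrays, 23.1% of the 39 measured anywhere, beside 15.1% of 10181 genes measured anywhere. SEMA3G made 1 of 39 on all adult and no fetal arrays, beside 0.471% of all.

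Cytoplasmic effectors and co-receptors of the same pathways were read from a list of 61 genes, of which 48 were on the array. In the superficial, middle and deep zones 15, 7 and 6 were measured (31.2%, 14.6% and 12.5%), against 19, 22 and 22 in the intermediate layer, the outer layer and transient cartilage (39.6%, 45.8% and 45.8%). The shares of all named genes were 28.5%, 9.98% and 12.4%, against 36.6%, 42.4% and 44.5%. Between the intermediate layer and transient cartilage 3 of 14 were at least 4-fold higher (RASA1, 8.22-fold, PTK2, 5.50-fold, and FLRT2, 4.70-fold) and 2 lower (PAK3, 9.71-fold, and TRIO, 9.30-fold), beside 14.8% and 6.56% of all genes. RASA1 encodes a Ras-inactivating protein that Eph receptors recruit, and TRIO an exchange factor downstream of netrin receptors. The collapsin response mediators, which relay semaphorin 3A signals to microtubules, fell on opposite sides: against transient cartilage, DPYSL3 was higher by at least 140-fold in the intermediate layer and by at least 192-fold in the outer layer, and CRMP1 lower by at least 18.3-fold and by at least 34.6-fold. ROCK1, the kinase through which many repulsive cues contract the cell, exceeded transient cartilage by at least 21.6-fold in the intermediate layer, and MICAL1, an actin-oxidising enzyme that acts downstream of plexins, by at least 21.2-fold.

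In the outer layer against transient cartilage 3 of 16 were at least 4-fold higher (CDK5, 12.0-fold, RASA1, 9.55-fold, and NCK2, 4.71-fold) and 2 lower (GSK3B, 6.46-fold, and TRIO, 4.27-fold), beside 10.6% and 8.06% of all genes. Between the interzone layers 2 of 17 were higher in the intermediate layer (PTK2, 5.22-fold, and ROCK1, 5.15-fold) and 2 lower (PAK3, 21.6-fold, and CDK5, 4.01-fold), beside 10.4% and 7.21%. In the adult, DPYSL2, another collapsin response mediator, was measured in the superficial zone alone (349), as was the plexin partner MET (298). RND1, a GTPase that binds plexins, was measured on all arrays, at 808, 3445 and 1427 in the superficial, middle and deep zones, against 1159, 559 and 561 on the fetal arrays. L1CAM, an adhesion molecule that partners neuropilin 1, was also measured on all, at 33.3, 314 and 135 in the adult zones, against 19.5, 15.4 and 9.64 on the fetal arrays, so that every adult signal lay above every fetal one under this scaling. Superficial against middle, 0 of 6 were at least 4-fold higher and 3 lower (9.26% and 36.8% of all genes). Superficial against deep, 1 of 4 was higher and 1 lower (10.3% and 19.5%), and middle against deep 0 of 5 were either (12.5% and 7.4%). As given above, the authors' values turned the split of all genes in each of these adult pairs, and the pathway counts hold for the present scaling alone.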

How the data were processed

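Each region gave 1 single-colour Agilent array. Per the file headers, the deposited intensities are processed spot signals, already background-corrected, from Feature Extraction 10.7.3.1. The authors also deposited a value table of ratios, and set against the scanner values it holds each array's processed signal divided by its median. Amplification was by SuperAmp PCR, per the labels' protocols. The series' design text names a larger array format than the 45220 spots found.

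Spots called outliers were left out and spots of a probe averaged. Each array was scaled by its 75th percentile, taken across the 1765 probes that passed the background call on every one of the 6 arrays. Probes were named by symbol (79 of the 100 probes), gene number (15) or full name (6), and updated symbols and neighbouring genes come from a RefSeq table. The printed probe sequences are those of the deposited scanner files. A gene was represented by its probe of highest mean signal, and compared where that probe was well above background on every array compared. With 1 side at background a bound was computed against the higher of the lowest signal above background and the probe's own. The threshold was 4-fold. No test was possible with 1 array per region, except a limma 3.58.1 fit of stage as an alternative. Every member could be named, with 4 largest differences and 4 bounds per direction and comparison from each list. The members, lists and settings were chosen with earlier results of these data known. The code was tested on simulated data. Alternatives were other scalings, quantile normalization, normexp correction with an offset of 50, means over probes, other filters, a 2-fold threshold and leaving out each region in turn. Python 3.11.15, pandas 2.3.3 and R 4.3.3 were used.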

Additional observations from a re-analysis of the deposited data

How the results depend on the processing

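Of 43 differences or bounds of single genes at 4-fold or more, all kept their direction under every scaling, correction, filter and left-out region that gave a value. A bound gave a value only where its sign held, so the bounds could not turn. Bounds that failed under a setting are not counted, and bounds were not followed under the other filters or the means over probes. Their direction was thus not tested by these repeats. In 292 such repeats, 41 fell under 4-fold. The counts moved more, and in each pair below the number past the threshold and higher precedes the number lower. No paired analysis was possible because each group has 1 array and the labels give no replicate numbers, and slide could not be fitted as a block because each slide holds 1 age.

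For the intermediate layer against transient cartilage (8 and 0), scaling on the 50th percentile of the shared probes gave 5 and 1, a filter asking for 1 array above background 11 and 7, no filter 12 and 7, and a 2-fold threshold 11 and 2. Quantile normalization gave 7 and 0 for this pair, and normexp 6 and 0. For the outer layer against transient cartilage (3 and 0), the authors' values gave 5 and 0, the 75th percentile of all probes and quantile normalization each 2 and 0, normexp 1 and 0, the wider filter 5 and 5, no filter 6 and 5, and 2-fold 9 and 1. Between the interzone layers (3 and 1), the 50th percentile gave 2 and 2, the authors' values and quantile normalization each 2 and 1, normexp 1 and 0, the wider filter 6 and 4, no filter 7 and 4, and 2-fold 6 and 3. Means over the probes of a gene gave 4 and 1 for this pair. For superficial against middle (0 and 0), the 75th percentile of all probes, the 50th percentile and normexp each gave 0 and 2, quantile normalization 0 and 5, the wider filter 3 and 2, no filter 3 and 29, and 2-fold 0 and 3. For superficial against deep (1 and 0), the 75th percentile of all probes gave 1 and 2, the 50th percentile 1 and 1, quantile normalization 1 and 3, the wider filter 6 and 3, no filter 6 and 10, and 2-fold 1 and 2. For middle against deep (1 and 0), the wider filter gave 2 and 2, no filter 4 and 2, and 2-fold 1 and 1. For adult against fetal (1 and 0), the 75th percentile of all probes gave 3 and 0, quantile normalization 2 and 0, the authors' values 1 and 1, the wider filter 8 and 12, no filter 10 and 12, and 2-fold 1 and 1. Leaving out each region in turn gave 1 higher and 0 to 1 lower. The limma fit called 0 axon guidance genes at a Benjamini-Hochberg adjusted p under 0.05 (SEMA3C, adjusted p = 0.103 by limma). Of all 729 genes it called 53, and 212 had an unadjusted p under 0.05, SEMA3C among them. Without a filter the counts hold probes at background, where a difference follows the background of the array.

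Across the scalings the median of all genes ranged from -0.19 to 0.48 for the intermediate layer against transient cartilage (1.00 after normexp) and from -3.12 to 0.44 for superficial against middle, so differences are best read against that median. The middle and deep arrays, with few genes above background, limit what can be called absent there. With 1 array per region, the spread between animals is unknown.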

Other observations

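The levels of several ligand and receptor pairs can be set side by side on the same arrays, as values only, for pairs chosen after their values were seen. EFNB2 and its receptor EPHB4 were both measured on all 3 fetal arrays, and both interzone layers exceeded transient cartilage for each, by 7.40-fold and 5.44-fold in the intermediate layer and by 9.31-fold and 2.52-fold in the outer layer. SLIT3 and ROBO2 were likewise measured on all 3 fetal arrays, and their order differed, with SLIT3 highest in the outer layer (118) and ROBO2 in the intermediate layer (328). SEMA4D was measured in the superficial and middle adult zones, where its receptor PLXNB1 was at background, and PLXNB1 was measured on all fetal arrays, where SEMA4D was at background. The SEMA4D signals, from 1 probe, lay close to the lowest signal above background of those adult zones. SEMA3E was measured in the superficial adult zone and its receptor PLXND1 in transient cartilage, so no array showed both.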
